A study of Homo sapiens with 4 samples.

Results

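Making a ribosome starts in the nucleolus, where RNA polymerase I copies the ribosomal DNA into a long precursor. Small nucleolar ribonucleoproteins (snoRNPs) guide chemical modification of that precursor, and a large assembly called the small-subunit processome cuts it, while separate factors carry the pre-40S and pre-60S particles towards the cytoplasm. Leukaemia cells divide fast and depend on a steady supply of ribosomes. The 46 genes described here encode proteins of this pathway. They were chosen by name, with earlier results of these data known. Each of the 46 symbols matched 1 of the 57992 rows of the count table. They were sorted by known function into 8 snoRNP proteins, 14 small-subunit processome and pre-40S factors, 13 large-subunit factors, 7 genes of RNA polymerase I and its factors, and 4 other nucleolar proteins.

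Messenger RNA was sequenced from MOLM13, an established human acute myeloid leukaemia line, in a derivative labelled as resistant to venetoclax, an inhibitor of BCL2. The PRMT9 shRNA group comprised 2 libraries of cells in which doxycycline induced a hairpin targeting PRMT9, which encodes a methyltransferase of protein arginines. The control shRNA group comprised 2 libraries of the same cells in which doxycycline induced a control hairpin, so that doxycycline and the resistant background were common to both groups. The labels do not say whether the numbered libraries are separate cultures, so p-values measure only the spread between these libraries, which may be technical.

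PRMT9 itself had 81 and 78 counts in the PRMT9 shRNA libraries, against 398 and 406 counts in the control libraries. On the log2 scale it fell by 2.48 (SE 0.117), with an edgeR adjusted p of 5.24e-13. Total counts were 30764403 and 33845172 in the PRMT9 shRNA libraries and 30329901 and 28592902 in the control libraries. Of 10 myeloid leukaemia markers, 9 had at least 10 counts in every library, among them PTPRC, CD33, SPI1, LYZ and FLT3. Of the 10 markers 8 rose and 2 fell, where 33.4% of all genes tested rose and 34.5% fell. MPO fell by 0.47 and FCGR1A by 0.62 on the log2 scale. The largest rises were in ANPEP (3.39, at 5 counts in each control library) and CSF1R (1.86). The summed level of the 10 markers was 2514.2 and 2511.9 CPM (library-scaled counts, with TMM factors) in the PRMT9 shRNA libraries. In the control libraries it was 1826.4 and 1810.6 CPM. The part of this shift in the results below was not tested. Of 6 erythroid and megakaryocyte markers 5 were at 0 in every library, as were EPCAM and KRT19 among 6 epithelial and stromal markers. Of the others in that list KRT18 had 806 and 824 counts in the PRMT9 shRNA libraries and 663 and 638 counts in the control libraries, a rise of 0.18 on the log2 scale (edgeR adjusted p = 0.0138), and COL1A1 had 7 to 19 counts in a library. The 6 lymphoid markers together stayed between 0.758 and 0.878 CPM without TMM factors.

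RNA levels of ribosome biogenesis genes were lower in PRMT9 shRNA cells in every functional class. Of 46 members, all of which passed the filter on low counts, 42 fell and 2 rose at an adjusted p below 0.05, and 2 did not pass. Over all 15193 genes tested, 67.9% passed, 34.5% as falls and 33.4% as rises. The members' share of falls (91.3%) lay well above this background and their share of rises (4.35%) well below it. The members were chosen with earlier results of these data known, so the contrast is a description and not a test. Both PRMT9 shRNA libraries lay below both control libraries for 42 members and above them for 3, against 41.7% of all genes tested in each direction. The median log2 fold change was -0.50 for the members and 0.0008 for all genes tested. Most of the falls were moderate: 4 members fell by 2-fold or more, namely RRP1B, UTP20, RRS1 and UTP15. A fall of that size was called in 3.77% of all genes tested. The 25th percentile of all genes lay at -0.37, and 34 members were below it. The 10th percentile lay at -0.71, and 9 members were below that.

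**Figure D1:**
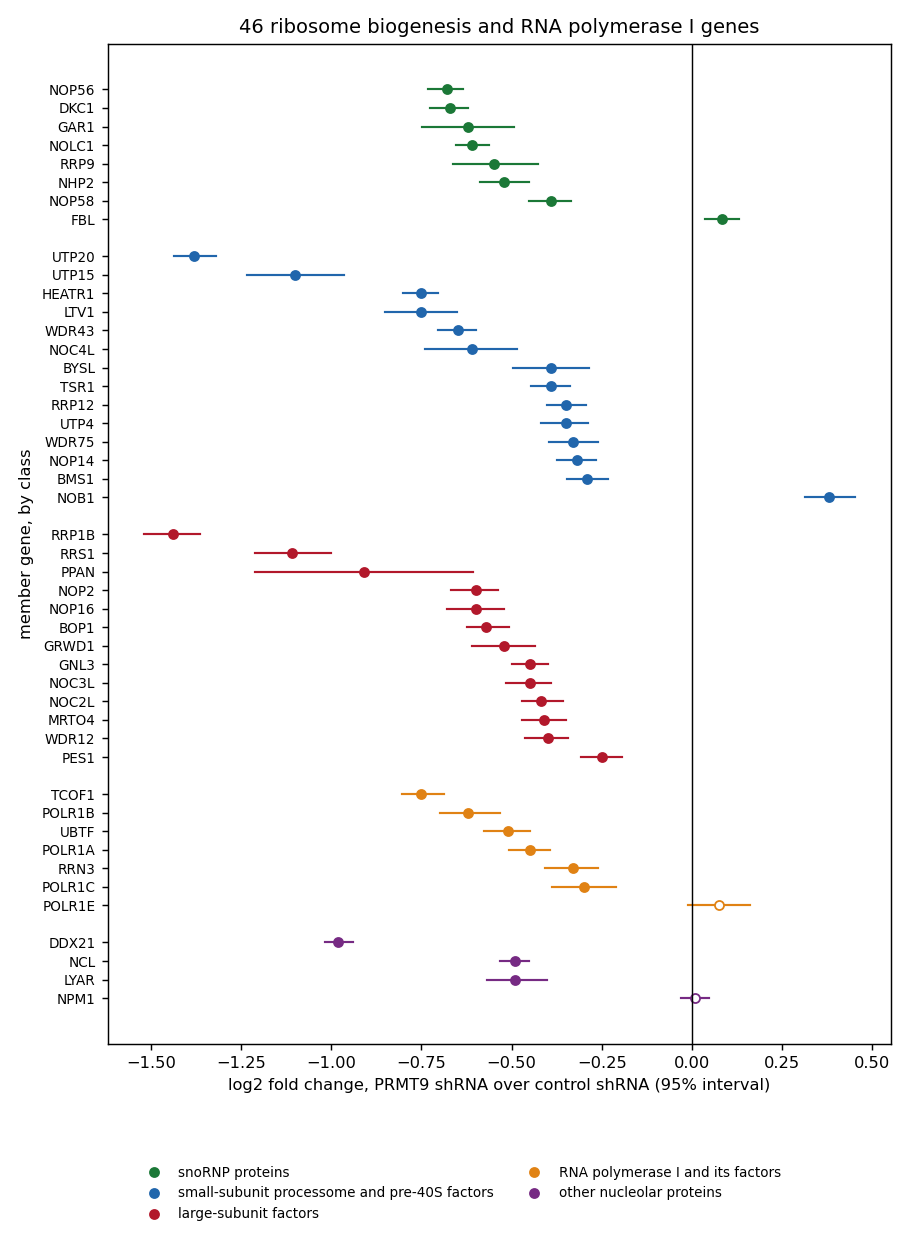
Log2 fold change (x axis, PRMT9 shRNA over control shRNA) of each of the 46 member genes (y axis), grouped by class, with lines for the 95% interval of the edgeR fit and open circles for genes that did not pass an adjusted p of 0.05. 42 members lie left of 0 with their whole interval, FBL and NOB1 lie right of it, and the intervals of POLR1E and NPM1 include 0.

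Together the 46 genes made up 8436.9 and 8401.4 CPM in the PRMT9 shRNA libraries, against 11312.5 and 11459.5 CPM in the control libraries. The sum in PRMT9 shRNA cells was 73.9% of that in control cells. NPM1, NCL and DDX21 hold much of this sum, and without them the other 43 genes reached 71% of the control level. By class the sum stood at 72.8% of control for snoRNP proteins, 70.3% for small-subunit processome and pre-40S factors, 69.2% for large-subunit factors and 72.4% for RNA polymerase I and its factors. For the other nucleolar proteins it stood at 77.3%. These are bulk libraries, in which fewer cells with a transcript and less of it per cell cannot be told apart.

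Among the snoRNP proteins, 7 of 8 fell and 1 rose, and the class median was -0.58 on the log2 scale. The box C/D core, which directs methylation of ribose in ribosomal RNA, split. NOP56, a scaffold of that core, was at 215.7 and 212.4 CPM in the PRMT9 shRNA libraries, against 347.5 and 339.4 CPM in the control libraries. NOP56 thus fell by 0.68 on the log2 scale (SE 0.023, edgeR adjusted p = 3.46e-15). The paralogous scaffold gene NOP58 fell by 0.39 on the log2 scale, and SNU13, the remaining core gene and outside the members, by 0.36. FBL, which encodes fibrillarin, the methyltransferase of the same particle, was at 289.0 and 280.8 CPM in the PRMT9 shRNA libraries, against 268.0 and 269.9 CPM in the control libraries. The groups did not overlap, but the rise was small, at 0.08 on the log2 scale (95% interval 0.035 to 0.131, edgeR adjusted p = 0.00355). This call was lost in log2(RPKM + 1) (adjusted p = 0.0641) and without PRMT9 shRNA replicate 1 (0.061, adjusted p = 0.0856).

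In the box H/ACA core, which converts uridine to pseudouridine, 3 of 4 genes fell. DKC1, the pseudouridine synthase dyskerin, was at 140.2 and 138.0 CPM in the PRMT9 shRNA libraries, against 223.5 and 219.7 CPM in the control libraries (log2 fold change -0.67, edgeR adjusted p = 1.5e-14). GAR1, a partner of dyskerin, was at 22.2 and 20.3 CPM in the PRMT9 shRNA libraries, against 33.8 and 31.4 CPM in the control libraries. Its log2 fold change was -0.62 (SE 0.061). NHP2 fell by 0.52. NOP10, the remaining core gene and one of the further snoRNP genes described below, averaged 62.5 ± 0.132 CPM in PRMT9 shRNA cells and 65.7 ± 1.73 CPM in control cells (SD, n = 2 each), and its log2 fold change of -0.07 did not pass the test (95% interval -0.150 to 0.010, edgeR adjusted p = 0.111). NHP2 shares 27.4% of its exon bases with RMND5B on the opposite strand, and the use of strand in counting is not given in the sources used here. NOLC1, a nucleolar chaperone of snoRNPs, fell by 0.61, and RRP9, a protein specific to the U3 particle that starts precursor cleavage, fell by 0.55.

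Among the 14 small-subunit processome and pre-40S factors, 13 fell and 1 rose, and the class median was -0.39 on the log2 scale. The range in this class ran from -1.38 to 0.38 and was the widest of the classes. UTP20 (chr12:101280109-101386616 on GRCh38, plus strand), a large scaffold protein of the processome, was at 82.8 and 84.6 CPM in the PRMT9 shRNA libraries, against 220.3 and 214.8 CPM in the control libraries. This was 2.6-fold lower (log2 fold change -1.38, SE 0.028, edgeR adjusted p = 2.71e-18), and 189 of the 15193 genes had a lower value. UTP15 was at 18 and 21.2 CPM in the PRMT9 shRNA libraries, against 41.5 and 42.7 CPM in the control libraries (log2 fold change -1.10, SE 0.064). HEATR1 was at 213.2 and 214.9 CPM in the PRMT9 shRNA libraries, against 355.3 and 365.6 CPM in the control libraries (log2 fold change -0.75, SE 0.023). For each of these 3 genes the PRMT9 shRNA libraries lay far below the controls, and the replicates lay close together.

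UTP15 and HEATR1 belong to the UtpA subcomplex, which binds the nascent precursor and is also linked to its transcription. Its 5 genes among the members, UTP4, UTP15, HEATR1, WDR43 and WDR75, all fell, but by unequal amounts, from -1.10 for UTP15 to -0.33 for WDR75. NOL11, a further subunit outside the members, fell by 0.53. HEATR1 shares 23.2% of its exon bases with LGALS8 on the opposite strand. LGALS8 had 4637 and 5241 counts in the PRMT9 shRNA libraries and 2601 and 2488 counts in the control libraries, so its counts moved the other way. NOC4L, which pairs with NOP14 in the processome, fell by 0.61, and NOP14 itself by 0.32. The GTPase gene BMS1 had the smallest fall of the class, 0.29.

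Of the 5 late pre-40S factors among the members, 4 fell and 1 rose. LTV1, which acts in export and maturation of the pre-40S particle, fell by 0.75. Of its exon bases 27.7% are shared with AL049844.3, which is listed at 0. Falls were also seen for the GTPase-like factor gene TSR1 and the bystin gene BYSL, 0.39 each, and for RRP12, 0.35. NOB1 (chr16:69741867-69754940, minus strand), the endonuclease that makes the final cut at the 3′ end of 18S ribosomal RNA, was at 108.5 and 111.8 CPM in the PRMT9 shRNA libraries, against 82.1 and 87 CPM in the control libraries. NOB1 rose by 0.38 on the log2 scale (SE 0.034, 95% interval 0.312 to 0.453, edgeR adjusted p = 5.65e-09). Its rise was the only one among the members that also passed a test against a fold of 1.2. An antisense gene, AC092115.3, covers 20.2% of its exon bases but had only 30 and 35 counts in the PRMT9 shRNA libraries and 21 and 18 counts in the control libraries.

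All 13 large-subunit factors fell, and their median was -0.52 on the log2 scale. RRP1B (chr21:43659548-43696079, plus strand), a nucleolar protein of pre-60S particles, had the largest fall of any member. It was at 49.1 and 48.1 CPM in the PRMT9 shRNA libraries, against 127.7 and 136.5 CPM in the control libraries. This was 2.72-fold lower (log2 fold change -1.44, SE 0.037, edgeR adjusted p = 7.01e-17). RRS1, which helps bring the 5S particle into the pre-60S subunit, was at 21.2 and 20.9 CPM in the PRMT9 shRNA libraries, against 45 and 45.7 CPM in the control libraries (log2 fold change -1.11, SE 0.051). PPAN was at 3.69 and 2.95 CPM in the PRMT9 shRNA libraries, against 6.22 and 6.21 CPM in the control libraries (log2 fold change -0.91, SE 0.144). PPAN shares 56% of its exon bases with the readthrough gene PPAN-P2RY11, which is listed at 0 in every library, so its level is uncertain.

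The remaining large-subunit factors lay close together, between -0.60 and -0.25. The PeBoW complex, which is needed for maturation of 28S and 5.8S ribosomal RNA, had falls of 0.57 for BOP1, 0.40 for WDR12 and 0.25 for PES1. NOP2, a methyltransferase of 28S ribosomal RNA, and NOP16 fell by 0.60 each. Of the exon bases of NOP2 54.4% are shared with AC006064.6, for which no counts are given. NOP16 shares 12% of its exon bases with ARL10 (at most 41 counts in a library) and 7.93% with HIGD2A, both on the opposite strand. HIGD2A had 2572 and 2905 counts in the PRMT9 shRNA libraries and 2075 and 2047 counts in the control libraries. GRWD1, a chaperone of a large-subunit ribosomal protein, fell by 0.52. GNL3, which encodes nucleostemin, and NOC3L fell by 0.45 each, NOC2L by 0.42 and MRTO4, which acts in assembly of the ribosomal stalk, by 0.41.

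Of the 7 genes of RNA polymerase I and its factors, 6 fell and 1 did not pass the test, and the median was -0.45 on the log2 scale. TCOF1 encodes treacle, a nucleolar scaffold for transcription of ribosomal DNA. It was at 89.1 and 89.2 CPM in the PRMT9 shRNA libraries, against 150.4 and 148.6 CPM in the control libraries (log2 fold change -0.75, SE 0.028, edgeR adjusted p = 1.69e-14). UBTF, which binds and shapes ribosomal DNA, was at 149.8 and 148.8 CPM in the PRMT9 shRNA libraries, against 205.7 and 220.6 CPM in the control libraries (log2 fold change -0.51, SE 0.030). RRN3, the factor that links the polymerase to its promoter, fell by 0.33, and 25% of its 50-base exon stretches are found in further genes as well, among them its pseudogenes.

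The polymerase subunits themselves did not move alike. POLR1B, the second largest subunit, was at 80.3 and 80.8 CPM in the PRMT9 shRNA libraries, against 117.6 and 129.4 CPM in the control libraries (log2 fold change -0.62, SE 0.039). The largest subunit gene, POLR1A, fell by 0.45. POLR1C, a subunit shared with RNA polymerase III, fell by 0.30. On the opposite strand XPO5 covers 6.27% of its exon bases and YIPF3 2.32%. XPO5 had 3569 and 4056 counts in the PRMT9 shRNA libraries and 6584 and 6286 counts in the control libraries. YIPF3 had 2202 and 2469 counts in the PRMT9 shRNA libraries and 1496 and 1418 counts in the control libraries. POLR1E was at 67 and 67.5 CPM in the PRMT9 shRNA libraries, against 66.4 and 61.3 CPM in the control libraries. Its log2 fold change of 0.07 did not pass the test (95% interval -0.012 to 0.160, edgeR adjusted p = 0.117), but it passed as a rise in 3 alternatives. These were upper-quartile scaling (0.16, edgeR adjusted p = 0.00198), a minimum of 1 CPM in place of the filter on counts (0.11, edgeR adjusted p = 0.0253) and the fit without control shRNA replicate 1 (0.13, edgeR adjusted p = 0.0158).

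The other nucleolar proteins comprised NPM1, NCL and DDX21, the members with the highest CPM in both groups, and LYAR, which was far lower. DDX21, an RNA helicase of ribosomal DNA transcription and precursor processing, was at 645.6 and 645.5 CPM in the PRMT9 shRNA libraries, against 1268.0 and 1275.7 CPM in the control libraries. DDX21 fell by 0.98 on the log2 scale (SE 0.019, edgeR adjusted p = 1.49e-18). NCL, which encodes nucleolin, was at 1431.4 and 1396.3 CPM in the PRMT9 shRNA libraries, against 1971.6 and 2007.9 CPM in the control libraries (log2 fold change -0.49, SE 0.019). LYAR was at 50 and 51 CPM in the PRMT9 shRNA libraries, against 71.6 and 69.8 CPM in the control libraries (log2 fold change -0.49, SE 0.039). Each of these 3 genes fell, with no overlap between groups.

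NPM1, which encodes nucleophosmin, was the exception among them. It was at 2011.4 and 2007.1 CPM in the PRMT9 shRNA libraries, against 1972.1 and 2022.1 CPM in the control libraries, and the groups overlapped. The log2 fold change was 0.009 (95% interval -0.030 to 0.047, edgeR adjusted p = 0.69). Its call depended on scaling and its call and direction on single libraries, since it was 0.10 and called with upper-quartile scaling (adjusted p = 8.5e-05), 0.042 and called without control shRNA replicate 2 (adjusted p = 0.00584), and -0.017 without control shRNA replicate 1 (adjusted p = 0.367). Other genes, NPM1 pseudogenes among them, hold 18.9% of its 50-base exon stretches. In all, 14 of the 46 members share over 10% of such stretches with other genes.

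**Figure D2:**
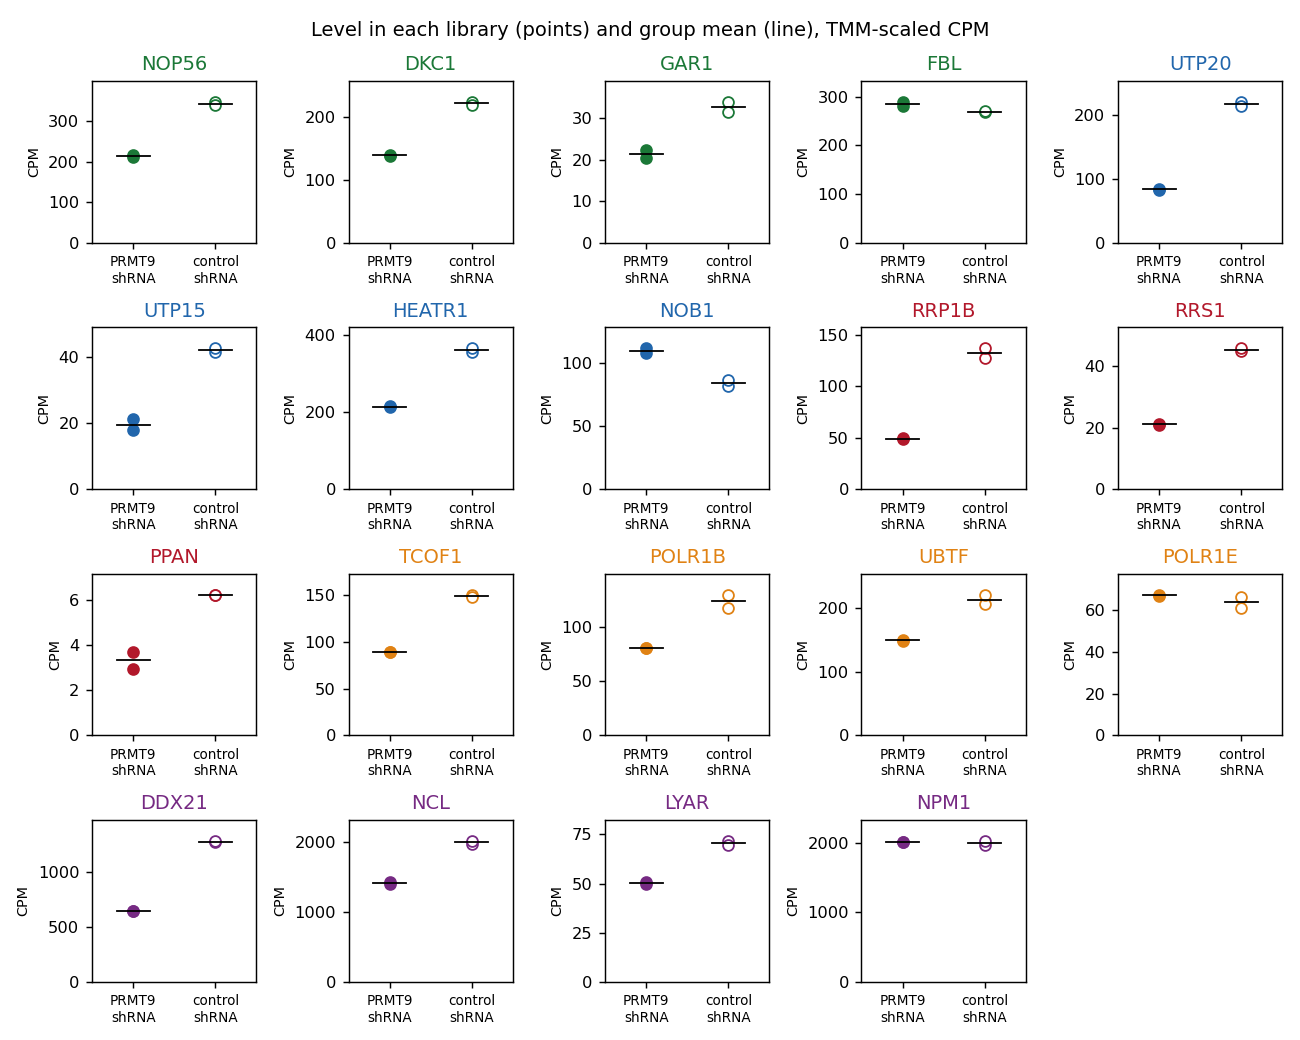
CPM (y axis, from 0) of 19 members in each library, with filled points for PRMT9 shRNA, open points for control shRNA and lines for group means of 2 libraries. FBL, NOB1 and, by a small margin, POLR1E are higher in both PRMT9 shRNA libraries. The points of NPM1 overlap, and the other 15 genes are lower in both.

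Levels of different genes were compared per exon length in the authors' RPKM (reads per kilobase of exon, scaled to library size), which rests on the exon length in the deposited table. NPM1 was the highest member in both groups, at 523.9 RPKM in PRMT9 shRNA cells and 521.9 RPKM in control cells, and PPAN the lowest, at 1.28 and 2.41 RPKM. The median member stood at 21.0 RPKM in PRMT9 shRNA cells and 28.7 RPKM in control cells. Ratios of RNA levels between members restate their fold changes per length and were not tested. FBL stood at 3.29 times the RPKM of NOP56 in PRMT9 shRNA cells and at 1.94 times in control cells. POLR1E stood at 2.79 times the RPKM of POLR1A in PRMT9 shRNA cells and at 1.94 times in control cells. NPM1 stood at 2.57 times the RPKM of NCL in PRMT9 shRNA cells and at 1.82 times in control cells. These 3 pairs set a member that did not fall over one that fell. Between members that both fell the ratios lay closer: NHP2 stood at 1.33 times the RPKM of DKC1 in PRMT9 shRNA cells and at 1.2 times in control cells, and POLR1C at 1.67 times the RPKM of POLR1A in PRMT9 shRNA cells and at 1.51 times in control cells. WDR12 stood at 0.417 times the RPKM of PES1 in PRMT9 shRNA cells and at 0.463 times in control cells, and BOP1 at 0.991 times in PRMT9 shRNA cells and at 1.23 times in control cells. GAR1 stood at 0.313 times the RPKM of DKC1 in PRMT9 shRNA cells and at 0.302 times in control cells, and the libraries overlapped.

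**Figure D3:**
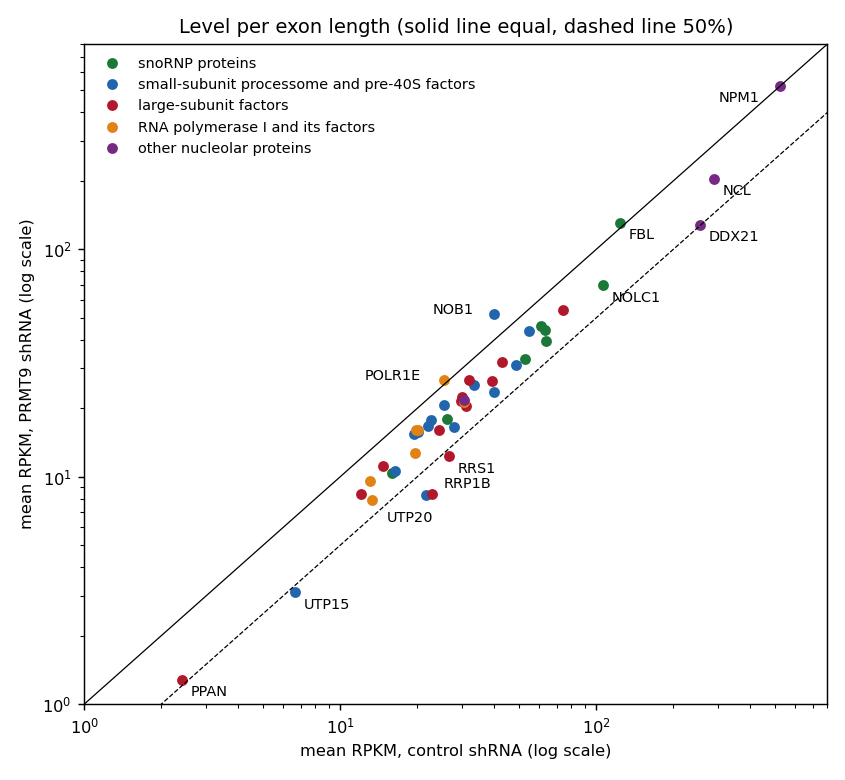
Mean RPKM in PRMT9 shRNA cells (y axis) against control cells (x axis) on log scales for the 46 members, coloured by class, with a solid line for equal levels and a dashed line for 50% of the control level. FBL, NOB1, POLR1E and NPM1 lie on or above the solid line, and RRP1B, UTP20, RRS1 and UTP15 lie below the dashed line.

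Further genes of the pathway, taken from 5 lists, also fell more often than the background. These lists too were chosen with earlier results of these data known. Of 148 tested genes 121 fell (81.8%, against 34.5% of all genes tested) and 7 rose, and their median was -0.34 on the log2 scale. In the small-subunit processome 38 of 42 further genes fell and 1 rose (median -0.36). The largest falls were in PNO1, a partner of NOB1, which averaged 13.2 ± 0.789 CPM in PRMT9 shRNA cells and 37.5 ± 0.116 CPM in control cells (SD, n = 2 each), and in RRP36, and the rise was in ABT1 (0.11, edgeR adjusted p = 0.0249). This call was lost with DESeq2, without a filter on low counts, in unfiltered log2(RPKM + 1), against a fold of 1.2, without PRMT9 shRNA replicate 1 and without control shRNA replicate 2, where 0 genes of the list rose. PNO1 had a log2 fold change of -1.51 (edgeR adjusted p = 5.11e-14), whereas NOB1 had 0.38. Of 55 further large-subunit genes 43 fell and 3 rose (median -0.34). URB2 fell by 1.23 and CCDC86 by 0.89. NOP53, listed as GLTSCR2, averaged 412.6 ± 4.12 CPM in PRMT9 shRNA cells and 277.7 ± 5.43 CPM in control cells (SD, n = 2 each). It rose by 0.57, RSL1D1 by 0.21 and NMD3, the export adaptor of the large subunit, by 0.11. NMD3 was named after its value was seen.

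Of 13 further RNA polymerase I genes tested, 10 fell and 1 rose (median -0.25). The falls were largest in POLR2K and POLR2L, small subunits common to the nuclear polymerases. POLR2K averaged 26.5 ± 1.46 CPM in PRMT9 shRNA cells and 60.6 ± 1.06 CPM in control cells (SD, n = 2 each), and POLR2L fell by 0.81 on the log2 scale. POLR1D, which pairs with POLR1C in polymerases I and III, averaged 247.6 ± 3.48 CPM in PRMT9 shRNA cells and 175.6 ± 2 CPM in control cells (SD, n = 2 each). It rose by 0.50, while POLR1C fell by 0.30. POLR2F had 1 count in all and was not tested. How overlapping genes were counted is not given in the sources used here, so its level is uncertain. Of 14 further snoRNP assembly genes 9 fell and 1 rose (median -0.27), with falls of 0.62 for NUFIP1 and 0.58 for RUVBL1, an ATPase of box C/D particle assembly, and a rise of 0.29 for ZNHIT3. Of 24 genes of the RNA exosome and of precursor trimming, 21 fell and 1 rose (median -0.47), with falls of 0.79 for ERI1, an exonuclease of 5.8S ribosomal RNA, and 0.72 for RPP40, and a rise of 0.10 for DIS3, a catalytic subunit of the exosome.

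**Figure D4:**
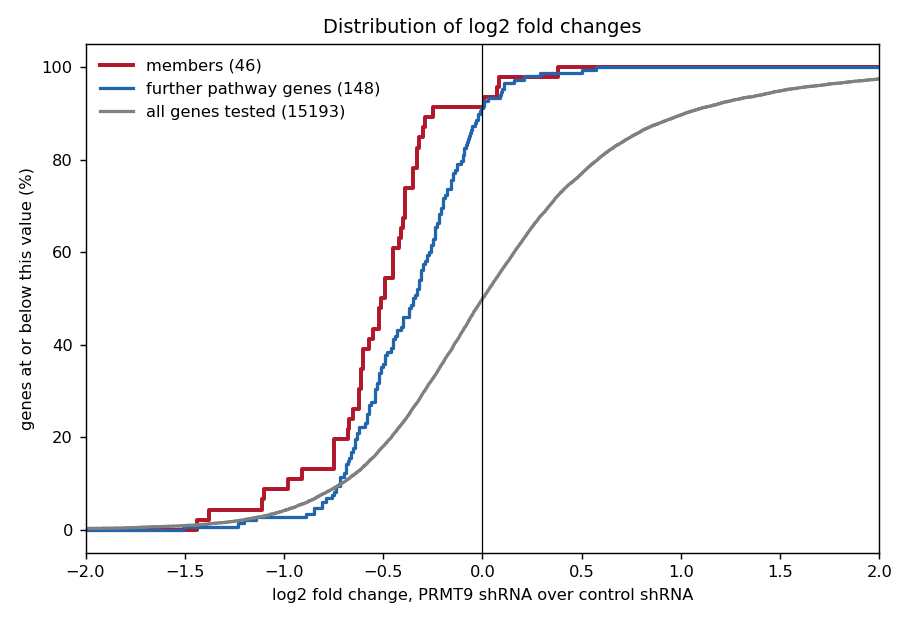
Share of genes (y axis, percent) at or below each log2 fold change (x axis, PRMT9 shRNA over control shRNA) for the 46 members, 148 further pathway genes and all 15193 genes tested. The medians lie at -0.50, -0.34 and 0.0008.

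The members share features that their selection did not use. RefSeq promoter windows (GRCh38.p14, 250 bases before to 50 bases after the start) were found for 38 of the 46. The 6-base sequence CACGTG, which reads the same on both strands and is the E-box bound by MYC with MAX, lay in the window of 16 of them (42.1%). It lay in 25.6% of the 121 further pathway genes with a window and in 12.8% of 9339 tested protein-coding genes with one. Over all 27305 genes with a window the share was 8.77%. A gene was counted if any of its windows held the motif, and base composition was not matched. By class it was in 3 of 6 snoRNP genes, 6 of 13 small-subunit genes, 5 of 10 large-subunit genes, 2 of 4 other nucleolar genes and 0 of 5 polymerase I genes. Of the 16 matches in members, 11 (68.8%) lay after the annotated start, against 9.9% of the 1454 matches in windows of tested protein-coding genes. A second motif, CCGGAAG on either strand, the core bound by ETS factors, lay in 15 of 38 members (39.5%), in 45.5% of the further pathway genes, a larger share than in the members, and in 23.1% of the tested protein-coding genes with a window.

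Members with and without CACGTG fell in similar shares. Since 42 of the 46 members fell, these shares could hardly differ, and the role of the motif was not tested. Of 16 carriers 15 fell and 1 rose (median log2 fold change -0.47), and of 22 members with a window but no match 20 fell and 1 rose (median -0.50). FBL, which rose, carries the motif, as does UTP20, the carrier with the largest fall. The stretches around the motif are shown for the snoRNP carriers and, in each other class, for the carriers with the largest and the smallest fall, to set carriers that fell by different amounts beside the one that rose. Capitals mark the motif and small letters the 12 bases on each side, fewer in NOP2 where the window ends, from the strand of the gene.
GAR1: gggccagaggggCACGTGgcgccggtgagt
RRP9: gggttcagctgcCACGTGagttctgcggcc
FBL: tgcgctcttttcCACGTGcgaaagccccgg
UTP20: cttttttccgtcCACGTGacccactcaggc
NOP14: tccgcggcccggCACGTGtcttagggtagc
NOP2: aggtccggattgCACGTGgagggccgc
PES1: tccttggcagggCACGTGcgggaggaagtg
DDX21: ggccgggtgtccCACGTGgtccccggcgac
LYAR: cggcggcgagtcCACGTGctccccgcggcc

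In the snoRNP class the GAR1 stretch lies at chr4:109815781-109815810 (plus strand), that of RRP9 at chr3:51941892-51941921 (minus strand) and that of FBL at chr19:39846356-39846385 (minus strand). The carriers GAR1 and RRP9 fell by 0.62 and 0.55 on the log2 scale, while FBL rose by 0.08. In the small-subunit class UTP20 (fall of 1.38) has its stretch at chr12:101280083-101280112 (plus strand) and NOP14 (fall of 0.32) at chr4:2963374-2963403 (minus strand). In the large-subunit class NOP2 (fall of 0.60) has it at chr12:6568242-6568268 (minus strand) and PES1 (fall of 0.25) at chr22:30591880-30591909 (minus strand). Among the other nucleolar proteins DDX21 (fall of 0.98) has it at chr10:68956604-68956633 (plus strand) and LYAR (fall of 0.49) at chr4:4290068-4290097 (minus strand). The same 6 bases stood near the start of UTP20, the member with the second largest fall, and of FBL. The rise of FBL was small, and its call was lost in several alternatives.

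Several members also carry guide RNAs of the machinery they encode. In GENCODE release 29, 8 of the 46 genes (17.4%) hold at least 1 snoRNA gene on the same strand within their span. The share was 1.29% over all 19708 protein-coding genes of the table, which were not filtered by expression. The 8 member hosts are NOP56, NOP58, DKC1, WDR43, TSR1, GNL3, PPAN and NCL, which together hold 27 snoRNA genes. No polymerase I gene holds one. All 8 host genes fell, where 42 of the 46 members fell in all. In these poly(A)-selected libraries the snoRNAs themselves were barely counted: 15 of the 27 had a count in any library, and the highest was 27 counts, so their levels were not compared.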

How the data were processed

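For each of the 4 libraries the authors deposited read counts, not normalized, and RPKM per gene (Ensembl identifiers, GRCh38 coordinates). Trizol extraction and the Kapa mRNA HyperPrep kit are given per the labels' protocols. The submitters' processing notes name Trimmomatic 0.39, STAR 2.7.2a and SAMtools 1.10 without their roles. The counting program and its handling of strand, of reads that map to several places and of overlapping genes were not given in the sources used here.

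The count test was edgeR 4.0.16 in R 4.3.3: filterByExpr (minimum count 10, 15193 genes kept), TMM scaling and the robust quasi-likelihood test with a group term, fitted on the whole table with Benjamini-Hochberg adjustment over all genes. A gene "rose" or "fell" at an adjusted p below 0.05, whatever the size of the change. PRMT9 shRNA is the numerator of every log2 fold change, and 95% intervals come from the same fit. The script was tested on simulated data. The members, the further lists and the classes were chosen with earlier results of these data known. Values per library are given for the 3 called members with the largest change in each class, called members that went against their class and members not called. Of each further list the 2 largest falls and rises are named, or as many as there were. Alternatives comprised other scalings and filters, DESeq2 1.42.0, limma 3.58.1 on log2(RPKM + 1) and log2(RPKM + 0.1) (with a minimum mean of 0.5 RPKM, or none), a test against a fold of 1.2, the replicate number as a block, and each library left out. Shared exon bases and 50-base windows come from GENCODE release 29, promoter windows from RefSeq. The motif CCGGAAG and the complexes described within classes were added after the data were seen, as were NOP10, SNU13 and NOL11.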

Additional observations from a re-analysis of the deposited data

How the results depend on the processing

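The number of members that fell was 42 in all alternatives except the test against a fold of 1.2, where it was 39, with BMS1, PES1 and POLR1C lost. Over all genes, calls in either direction numbered 10313 of 15193 in the main fit and 6812 of 15193 against a fold of 1.2. With DESeq2 they numbered 8350 of 15193, and in unfiltered log2(RPKM + 1) 7516 of 30023. The share of falls alone over all genes was not counted in the alternatives. The median log2 fold change of the members ranged from -0.51 to -0.41. Upper-quartile scaling moved the median of all genes by 0.0883 on the log2 scale. The number of members that rose, 2, was small and moved: 4 with upper-quartile scaling, 1 in log2(RPKM + 1) with or without a filter, in log2(RPKM + 0.1) and against a fold of 1.2, and 1 to 3 with a library left out. Among snoRNP proteins, where FBL was the 1 rise, 0 rose in log2(RPKM + 1) (with and without a filter), in log2(RPKM + 0.1) and against a fold of 1.2, and 0 to 1 with a library left out. Among RNA polymerase I genes 1 rose, in place of 0, with upper-quartile scaling and with a filter at 1 CPM, and 0 to 1 with a library left out. Among other nucleolar proteins 1 rose with upper-quartile scaling and 0 to 1 with a library left out. The log2 fold change of NPM1 ranged from -0.017 to 0.042 with a library left out. In the further lists, against a fold of 1.2 the falls numbered 6 for the snoRNP list and 23 for the small-subunit processome. For RNA polymerase I they numbered 6 and for the exosome list 13. Against that fold the rises numbered 0, 0 and 1 for the snoRNP, small-subunit and large-subunit lists and 0 for the exosome list. The small-subunit falls, 38 in the main fit, numbered 30 with upper-quartile scaling, 32 with DESeq2 and 29 in unfiltered log2(RPKM + 1). With upper-quartile scaling the rises numbered 3, 2 and 5 in the snoRNP, small-subunit and large-subunit lists, and with a filter at 1 CPM 2 in the snoRNP list. ABT1, the small-subunit gene that rose, lost its call, and no gene of that list rose, with DESeq2 (0), without a filter on low counts (0) or in unfiltered log2(RPKM + 1) (0), and 0 to 1 rose with a library left out (0 without PRMT9 shRNA replicate 1 or without control shRNA replicate 2). In the exosome list 0 rose in log2(RPKM + 1), filtered or not, and in log2(RPKM + 0.1). The causes were not tested. With the replicate number as a block, 42 members fell and 2 rose, and no member's call changed. The deviations of same-numbered libraries had a correlation of -0.0307 across genes, so no pairing by number was visible. Such a value cannot exclude that same-numbered libraries were prepared together, which the labels do not say. Precision is set by 2 libraries per group. The common coefficient of variation beyond counting error was 0.0259.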

Other observations

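Across the 46 members, the log2 fold change had a Spearman correlation of 0.16 with the mean RPKM in control cells and of -0.11 with exon length. These are descriptions over genes, which are not independent and share the same 4 libraries. Rows annotated as 5S or 5.8S ribosomal RNA had at most 3 counts in any library, and ribosomal RNA was not compared.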
